A study of Mus musculus with 4 samples.

Results

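The cell cycle and DNA replication genes described here were a set of 40 genes given by name: 14 genes of DNA replication, 17 of mitosis and 9 of the G1 phase and entry into S phase. A gene was measured where a transcript cluster, the set of probes that covers 1 transcript, carried its symbol alone, and the brightest such cluster stood for it. On this rule 38 of the 40 genes were found, among 19938 genes on the array. Ccnb1 had no such cluster and the only cluster of Cdkn1a carried several symbols, so both were not analysed here. Every one of the 38 genes lay above the median signal of all clusters.

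Expression was measured once, with 1 array and no replicate, in each of 4 sorted populations of living mouse cells. ESC CORIN+ and ESC CORIN- cells, as they are named here, were sorted on day 9 from a culture of embryonic stem cells (ESCs) of strain 129SVEV with GFP knocked in at the Lmx1a locus, and carry the labels CORIN+LMX1A::GFP+ for the one and CORIN-LMX1A::GFP+ for the other. These had been differentiated as floating aggregates (SFEBq culture) in which SHH and FGF8b, and later ascorbic acid and BDNF, were added, and both populations were GFP+. VM CORIN+ and VM CORIN- cells were sorted on CORIN alone from the ventral mesencephalon (VM) of C57BL/6N fetuses at E11.5. How many cultures or fetuses each array stands for is not given in the sources used here. LMX1A acts in progenitors of midbrain dopaminergic neurons as a transcription factor, while CORIN is a protease found on the surface of the floor plate. Corin, the sorted marker, had a log2 signal of 13.10 in ESC CORIN+ cells and 11.13 in ESC CORIN- cells, and of 11.43 in VM CORIN+ cells and 7.28 in VM CORIN- cells. The array medians lay between 7.97 and 8.03. Differences between arrays are given as log2 folds, and the scaled median absolute deviation (MAD) of the folds of all genes serves as a yardstick of size. As there is no replicate, neither an error nor a test can be given for any difference. In bulk RNA, fewer cycling cells and less RNA of these genes per cell cannot be told apart.

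Before S phase, Cdc6 and Cdt1 load the MCM helicase (Mcm2 to Mcm7) onto replication origins, Mcm10 and the GINS complex help to activate it, Pcna is the sliding clamp of the polymerases, and Rrm1 and Rrm2 form the ribonucleotide reductase that makes DNA precursors. In mitosis, Cdk1 with its cyclins, the Aurora and Polo kinases, checkpoint kinases, kinetochore proteins and spindle motors condense, align and separate the chromosomes. In G1, D-type cyclins and E-type cyclins drive the way to S phase, the inhibitors p27 (Cdkn1b) and p18 (Cdkn2c) hold it back, and E2f1 switches on genes of S phase. In the embryonic midbrain the progenitors of the ventricular zone divide, and the neurons that leave it do not. CORIN marks floor plate cells of that zone, so a question the design poses is whether the sorted CORIN+ cells carry more RNA of the cell cycle than the CORIN- cells.

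Some patterns stood out over the 4 arrays. Mitosis genes were lowest in VM CORIN- cells, in 16 of 16. Replication genes were mostly highest in ESC CORIN- cells, in 10 of 14, against 20.2% of all genes. Mitosis genes were mostly highest in ESC CORIN+ cells, in 10 of 16, against 28.3% of all genes. Over all 38 genes, 32 were lowest in VM CORIN- cells, against 25.6% of all genes. The exceptions were Mcm2, Rrm2, Ccne1, Ccnd1 and E2f1, lowest in ESC CORIN+ cells, and Gins1, lowest in ESC CORIN- cells. No member reached 2-fold in any of the 4 comparisons between arrays, whereas 0.898% of all genes did between the ESC-derived populations, 3.62% between the fetal populations, 7.35% between CORIN+ cells of the 2 sources and 8.07% between CORIN- cells of the 2 sources.

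**Figure D1:**
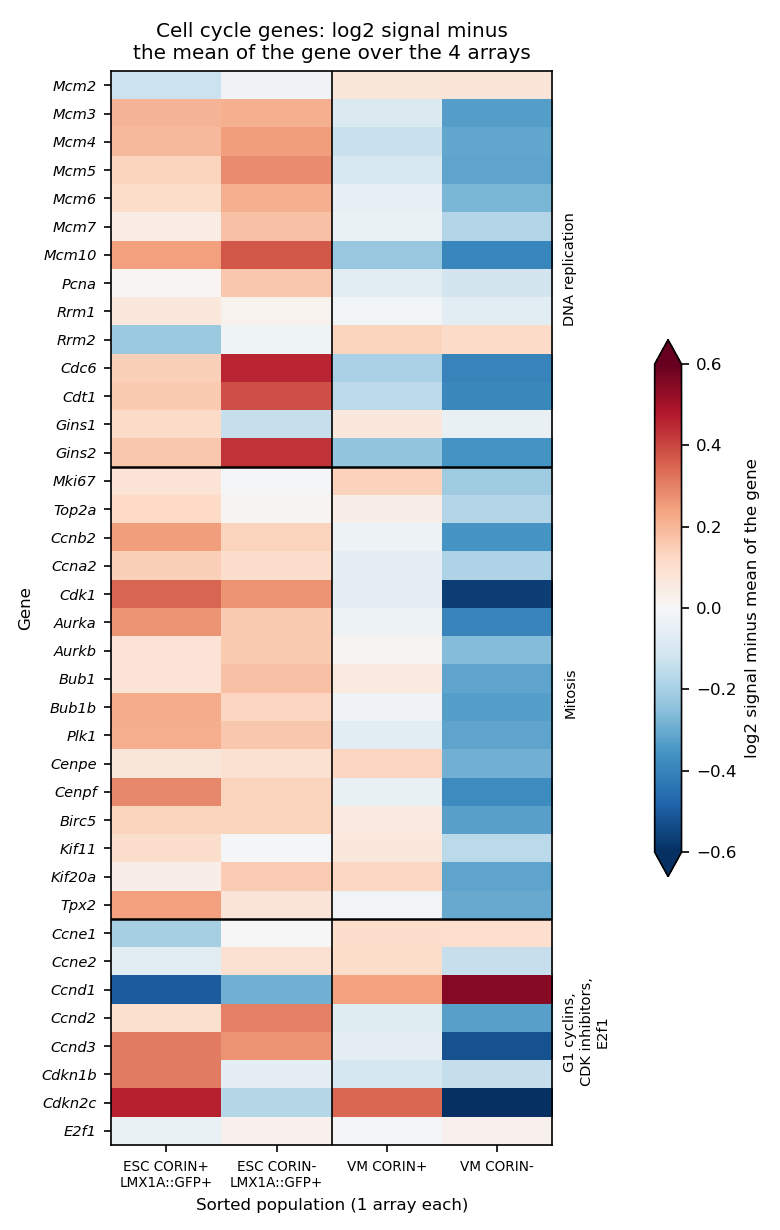
Log2 signal of each of the 38 genes (rows) in each sorted population (columns, 1 array each) minus the mean of the gene over the 4 arrays, in colour. Red is above and blue below the gene's mean. The VM CORIN- column is the lowest for 32 of the 38 genes, and Ccnd1 runs the opposite way, highest there.

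The promoters of 5 genes are printed, since these genes carry the patterns described below and their promoters show the motifs that were searched for. The sequences are those of RefSeq on GRCm38.p6, in the direction of the gene, with 250 bases before and 50 after the transcription start. Capitals mark 3 kinds of motif, each searched on both strands: the CHR element of late cell cycle genes (TTTGAA), the CCAAT box (CCAAT) and an E2F site (TTCCCGC or else TTCGCGC or else TTGCCGC or else TTGGCGC). Matches may overlap and then merge into 1 run of capitals, and a match to letters is a description, not a binding site. Cdk1 and Ccnb2 are mitosis genes, Mcm5 and Cdc6 are replication genes, and Cdkn2c is the gene of a CDK inhibitor. These promoters need not be typical of their groups. The Cdkn2c promoter shown was the 1 of 7 G1 promoters with an E2F match. The other promoter of Cdkn2c held 1 CCAAT match and no E2F match. Cdc6 had no CCAAT match, unlike most replication promoters.
Cdk1, chr10:69352863-69353162, minus strand: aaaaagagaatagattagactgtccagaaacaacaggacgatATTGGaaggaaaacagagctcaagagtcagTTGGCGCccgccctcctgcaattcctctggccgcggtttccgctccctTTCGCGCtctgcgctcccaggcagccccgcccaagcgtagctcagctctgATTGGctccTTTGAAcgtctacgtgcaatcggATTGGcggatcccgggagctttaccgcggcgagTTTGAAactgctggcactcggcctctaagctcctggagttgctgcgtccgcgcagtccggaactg
Ccnb2, chr9:70421505-70421804, minus strand: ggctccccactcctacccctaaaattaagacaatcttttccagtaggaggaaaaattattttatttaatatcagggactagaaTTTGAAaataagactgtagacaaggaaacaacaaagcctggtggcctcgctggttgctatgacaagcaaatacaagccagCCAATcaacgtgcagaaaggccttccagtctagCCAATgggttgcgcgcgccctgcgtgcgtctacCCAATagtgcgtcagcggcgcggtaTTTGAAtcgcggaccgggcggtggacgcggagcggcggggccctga
Mcm5, chr8:75109259-75109558, plus strand: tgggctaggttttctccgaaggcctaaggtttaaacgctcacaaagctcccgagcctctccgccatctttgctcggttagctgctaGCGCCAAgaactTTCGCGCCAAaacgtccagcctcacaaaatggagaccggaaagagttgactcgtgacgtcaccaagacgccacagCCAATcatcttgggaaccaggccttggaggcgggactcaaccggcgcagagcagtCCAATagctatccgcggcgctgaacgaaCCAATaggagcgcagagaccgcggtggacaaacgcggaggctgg
Cdc6, chr11:98907901-98908200, plus strand: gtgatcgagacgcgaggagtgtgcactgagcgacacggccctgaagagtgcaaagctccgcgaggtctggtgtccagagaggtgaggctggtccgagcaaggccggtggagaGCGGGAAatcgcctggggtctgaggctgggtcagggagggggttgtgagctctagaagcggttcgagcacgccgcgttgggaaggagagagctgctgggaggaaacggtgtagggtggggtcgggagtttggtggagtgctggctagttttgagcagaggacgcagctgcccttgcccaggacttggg
Cdkn2c, chr4:109666707-109667006, minus strand: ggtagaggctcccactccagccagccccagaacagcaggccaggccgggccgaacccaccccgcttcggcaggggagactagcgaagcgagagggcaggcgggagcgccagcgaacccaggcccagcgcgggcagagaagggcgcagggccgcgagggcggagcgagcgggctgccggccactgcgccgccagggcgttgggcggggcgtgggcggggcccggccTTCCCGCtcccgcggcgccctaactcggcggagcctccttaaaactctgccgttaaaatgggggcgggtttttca
The Cdk1 promoter held 2 CHR matches, 3 CCAAT matches and 2 E2F matches, and that of Ccnb2 held 2 CHR matches and 3 CCAAT matches. In Mcm5 there were 3 CCAAT and 3 E2F matches with no CHR match, and in Cdc6 and the Cdkn2c promoter shown there was 1 E2F match each.

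Promoters were found for 28 of the 38 genes, some with more than 1. A CHR match occurred in 9 of 12 mitosis promoters (75.0%), in 1 of 12 replication promoters (8.33%) and in 0 of 7 G1 promoters, against 17.9% of 32851 promoters of the same length in the table. An E2F match occurred in 2 of 12 mitosis promoters (16.7%), 9 of 12 replication promoters (75.0%) and 1 of 7 G1 promoters (14.3%), against 9.57% of all promoters. CCAAT was present in 11 mitosis promoters (91.7%), 10 replication promoters (83.3%) and 3 G1 promoters (42.9%), against 37.4% of all. The 9 mitosis promoters with a CHR match all held CCAAT as well, a pair found in 6.95% of all promoters.

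Between the ESC-derived populations, replication genes were slightly lower and mitosis genes slightly higher in ESC CORIN+ cells. Of the 14 replication genes, 12 were lower and 2, Gins1 and Rrm1, were higher, with a median log2 fold of -0.13. Of the 16 mitosis genes, 11 were higher and 5 lower, with a median of 0.084. Over all genes 50.5% were higher, the median was 0.0021 and the scaled MAD of single genes was 0.157. To count larger differences, a log2 fold of 0.32 was used, which is a ratio of 5 to 4. No gene of either group reached it, whereas 5.31% of all genes were higher by 0.32 or more and 6.36% lower by 0.32 or more.

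The largest difference among the replication genes was that of Cdc6, whose product loads the helicase. Its log2 signal was 9.24 in ESC CORIN+ cells and 9.56 in ESC CORIN- cells, against 8.91 in VM CORIN+ cells and 8.70 in VM CORIN- cells. Both ESC arrays thus lay above both fetal arrays, with a log2 fold of -0.31 between ESC CORIN+ and ESC CORIN- cells. Its partner Cdt1 followed the same order, with 10.83 in ESC CORIN+ cells and 11.06 in ESC CORIN- cells (log2 fold -0.23), and 10.52 in VM CORIN+ cells and 10.29 in VM CORIN- cells. Gins2, a subunit of the GINS complex, had 10.31 in ESC CORIN+ cells and 10.59 in ESC CORIN- cells, a log2 fold of -0.27, and 9.91 in VM CORIN+ cells and 9.79 in VM CORIN- cells. These 3 genes and Rrm2 (-0.20) were the replication genes lower by more than the scaled MAD. So were 3419 of all 19938 genes, a share close to the 7 of 38 in the whole set.

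The helicase subunits themselves differed less. Mcm5 had a log2 signal of 11.90 in ESC CORIN+ cells and 12.05 in ESC CORIN- cells, a log2 fold of -0.15, and Mcm7 one of -0.13, Mcm2 and Mcm6 -0.11 each, Mcm4 -0.06 and Mcm3 -0.01. Mcm10 was at -0.13 and Rrm1 at 0.04. Pcna, the clamp, had 12.74 in ESC CORIN+ cells and 12.89 in ESC CORIN- cells, and 12.67 in VM CORIN+ cells and 12.62 in VM CORIN- cells, so that its log2 fold between the ESC arrays was -0.15. A second Pcna cluster held the same values to 2 decimals, so the 2 cannot be told apart and count as 1 measurement. Against the run of the group, Gins1 had a log2 fold of 0.25.

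Among the mitosis genes the log2 folds spanned a narrow range, with Tpx2, a spindle assembly factor, at 0.17 and Kif20a, a kinesin of cytokinesis, at -0.11. Mki67, the proliferation antigen Ki-67, had a log2 signal of 12.28 in ESC CORIN+ cells and 12.19 in ESC CORIN- cells, a log2 fold of 0.09. Cenpf, a kinetochore protein, had 10.86 in ESC CORIN+ cells and 10.71 in ESC CORIN- cells (log2 fold 0.15). The kinase Cdk1, which drives entry into mitosis, had 11.85 in ESC CORIN+ cells and 11.77 in ESC CORIN- cells (0.08), and Aurora kinase A (Aurka) had 11.07 in ESC CORIN+ cells and 10.95 in ESC CORIN- cells (0.11). Of the 16, Tpx2 alone passed the scaled MAD, against 3419 of all 19938 genes that were higher by more than it and 3419 lower. Top2a, the topoisomerase that untangles sister chromatids, had a log2 fold of 0.10, and a second, dim cluster of it one of 0.14.

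The G1 genes differed in both directions, with 3 higher, 5 lower and a median of -0.11. The 2 CDK inhibitors were the members with a log2 fold of 0.32 or more, and 2 of 38 is a share near the background of 5.31%. Cdkn2c, the gene of p18, had a log2 signal of 9.44 in ESC CORIN+ cells and 8.81 in ESC CORIN- cells, a ratio of 1.56 that ranked 255 from the top among 19938 genes. Cdkn1b, the gene of p27, had 11.97 in ESC CORIN+ cells and 11.61 in ESC CORIN- cells, a ratio of 1.29, and its second, dimmer cluster was 1.67-fold higher. The cyclins ran lower: Ccnd1 and Ccnd2 each had a log2 fold of -0.21, Ccne1 -0.20 and Ccne2 -0.16, while Ccnd3 was at 0.04. E2f1 was at -0.07.

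Genes of the same pathways outside the set went mostly the same way. Their lists were chosen with earlier results of these data known and were read on the same arrays, so they are not independent support. Over all genes 50.5% were higher in ESC CORIN+ cells. Of 45 other replication genes, 31 were lower in ESC CORIN+ cells, with a median log2 fold of -0.05. Among them Ung, a DNA repair glycosylase, was at -0.35 and Dbf4, the activator of the kinase that fires origins, at -0.30. Of 56 other mitosis genes, 47 were higher, with a median of 0.10. The kinetochore gene Spc25 was at 0.48, whereas Mybl2, a transcription factor of late cell cycle genes, was at -0.61. Of 25 other genes that control G1 and entry into S phase, 16 were lower, with a median of -0.08. Those past 0.32 were Myc at -0.74 and Mycn at -0.50, and E2f6 at 0.52 and E2f5 at 0.45.

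Markers of other cells also differed between these 2 populations. In ESC CORIN+ cells, 20 of 20 genes of postmitotic neurons were lower, with a median log2 fold of -0.65 and a median log2 signal of 9.60, against 10.15 in ESC CORIN- cells. All 12 genes of pluripotent cells were lower, with a median log2 fold of -1.14 and a median log2 signal of 6.98, against 8.30 in ESC CORIN- cells, and 13 of 14 mesenchyme genes were lower, with a median log2 fold of -0.81. Endothelial genes were lower in 9 of 10, with a median log2 fold of -0.41. Genes of neural progenitors were higher in 10 of 13, with a median of 0.17. Their part in the differences of the cell cycle genes was not tested.

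Between the fetal populations, most of the set was higher in VM CORIN+ cells, and mitosis genes were higher by more than replication genes. Of the 16 mitosis genes 16 were higher, with a median log2 fold of 0.33, and 13 of the 14 replication genes were higher, with a median of 0.15. Over all genes 40.3% were higher, the median was -0.04 and the scaled MAD was 0.177. At a log2 fold of 0.32 or more were 8 of the mitosis genes, none of the replication genes and 2 of the G1 genes, against 10.4% of all genes and 12.6% of the 11101 brighter genes among which every member lay. No member was lower by as much, against 8.44% of all genes.

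Cdk1 had the largest difference among the mitosis genes, with a log2 signal of 11.45 in VM CORIN+ cells and 10.94 in VM CORIN- cells, a ratio of 1.43. It was lower in VM CORIN- cells than in each of the other 3 arrays. Kif20a (log2 fold 0.44), the kinetochore motor Cenpe (0.42), the chromosomal passenger Birc5 (0.39), the checkpoint kinase Bub1 (0.38), Aurka (0.37), Mki67 (0.35) and Cenpf (0.34) were the others at 0.32 or more. Just under the limit were the mitotic cyclin gene Ccnb2 (0.32, equal to it at 2 decimals) and the checkpoint kinase Bub1b (0.31). Tpx2 and Aurora kinase B, Aurkb, followed at 0.28 each.

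For Mki67 the log2 signal was 12.34 in VM CORIN+ cells and 11.99 in VM CORIN- cells. Aurka had 10.77 in VM CORIN+ cells and 10.41 in VM CORIN- cells, and Cenpf had 10.53 in VM CORIN+ cells and 10.19 in VM CORIN- cells. In all 3 genes the VM CORIN- array was below the other 3 arrays, and for Mki67 the VM CORIN+ array was the highest of the 4. The smallest log2 fold of the group was 0.13, that of Ccna2, a cyclin of S phase and early mitosis. Plk1, the Polo kinase, was at 0.25, the spindle motor Kif11 at 0.23 and Top2a at 0.22.

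Replication genes differed less between the fetal populations. Mcm3 had a log2 fold of 0.24, Cdt1 0.23, Mcm5 and Mcm6 0.22 each, Cdc6 0.21, Mcm4 0.18, Mcm10 0.16, Mcm7 0.14, Gins2 0.12 and Gins1 0.11. Those of Pcna (0.05), Rrm1 (0.05) and Rrm2 (0.02) were close to 0, and Mcm2, at -0.0049, was the 1 replication gene on the other side. In Mcm5 the log2 signal was 11.67 in VM CORIN+ cells and 11.45 in VM CORIN- cells, and in Mcm2 it was 11.54 in both.

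Cdkn2c had the largest difference of the whole set, with a log2 signal of 9.32 in VM CORIN+ cells and 8.34 in VM CORIN- cells, a ratio of 1.98 that ranked 650 from the top. It was the 1 member at 0.32 or more in CORIN+ cells of both pairs, as were 261 of all 19938 genes. The D-type cyclins went different ways. Ccnd3 had 10.96 in VM CORIN+ cells and 10.49 in VM CORIN- cells (log2 fold 0.47), Ccnd2 had 12.61 in VM CORIN+ cells and 12.36 in VM CORIN- cells (0.25), and Ccnd1 had 12.04 in VM CORIN+ cells and 12.34 in VM CORIN- cells (-0.30). Cdkn1b, with 11.56 in VM CORIN+ cells and 11.52 in VM CORIN- cells, and E2f1, at a log2 fold of -0.04, hardly differed, and the E-type cyclins Ccne1 and Ccne2 were at 0.01 and 0.25. The 8 genes had a median of 0.14, with 6 higher and 2 lower.

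**Figure D2:**
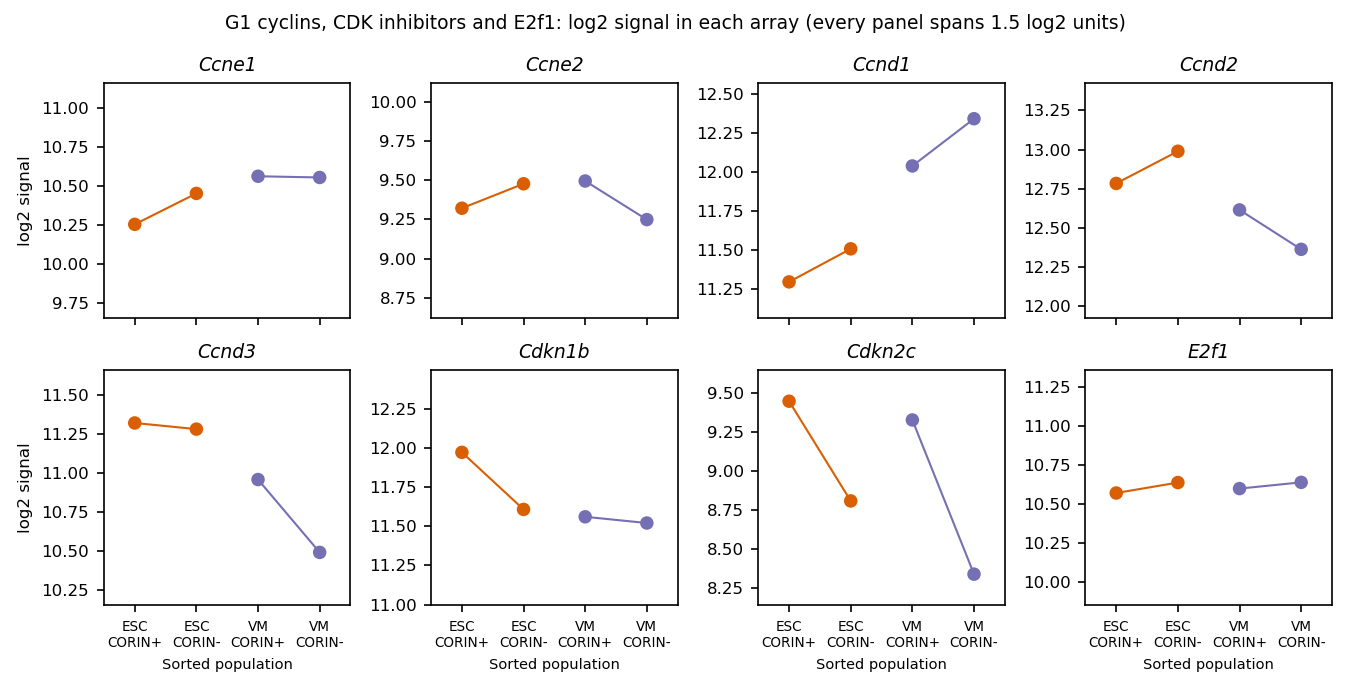
Log2 signal (vertical axis, each panel spanning the same width) of the 8 G1 genes in the 4 sorted populations, 1 array per point, with a line joining the 2 populations of 1 source. Cdkn2c is higher in CORIN+ cells of both sources, Ccnd1 is lower in CORIN+ cells of both, and Ccnd2 slopes in opposite directions.

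In the wider pathway lists, 40 of 45 other replication genes (median log2 fold 0.14) and 55 of 56 other mitosis genes (median 0.29) were higher in VM CORIN+ cells. Over all genes the share was 40.3%. These lists too were read on the same arrays and are not independent support. At a log2 fold of 0.32 or more were 1 of the replication genes, Rfc1 of the clamp loader (0.42), and 18 of the mitosis genes, among them Anln, a protein of the cytokinetic ring (0.43). These are 2.22% of the replication list and 32.1% of the mitosis list, against 10.4% of all genes. Of the 25 other G1 genes, 15 were higher, led by Cdk6, the partner kinase of D-type cyclins (0.65), and the phosphatase gene Cdkn3 (0.44).

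Several cell types differed between the fetal populations at the same time. In VM CORIN+ cells, 20 of 20 genes of postmitotic neurons were lower, with a median log2 signal of 10.88 against 11.48 in VM CORIN- cells. Higher in VM CORIN+ cells were 15 of 15 macrophage genes, with a median log2 signal of 10.37 against 6.70 in VM CORIN- cells, 14 of 14 mesenchyme genes, with 10.92 against 8.67 in VM CORIN- cells, and 7 of 9 erythroid genes, with 10.04 against 8.61 in VM CORIN- cells. Endothelial genes were higher in 8 of 10, with a median log2 fold of 0.42. Genes of neural progenitors were higher in 8 of 13, with a median log2 fold of 0.04. The part of these cells in the cell cycle differences was not tested.

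The ESC pair and the VM pair share no array, and their log2 folds were set side by side. The fetal fold lay above the ESC-derived fold for 35 of the 38 genes, namely for 16 of 16 mitosis genes, 13 of 14 replication genes and 6 of 8 G1 genes, against 8545 of all 19938 genes. The 3 exceptions were Gins1, Cdkn1b and Ccnd1. Lower in CORIN+ cells of the ESC pair but higher in CORIN+ cells of the VM pair were 11 replication genes, 5 mitosis genes and 3 G1 genes, and no member showed the opposite. The same held for 3599 of all 19938 genes, and 5645 showed the opposite. These differences between the pairs were not tested, as each pair rests on 2 arrays.

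**Figure D3:**
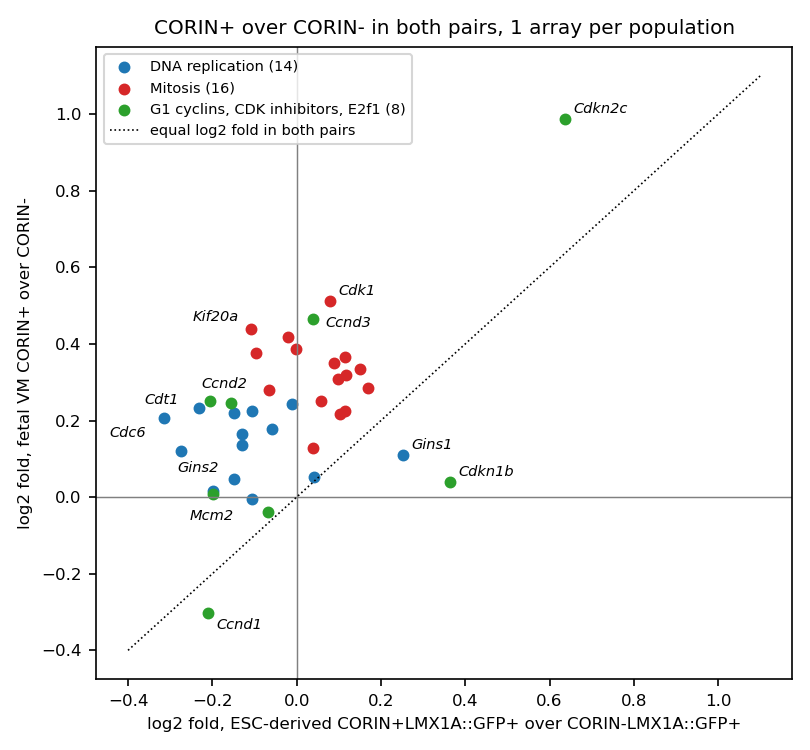
Log2 fold of CORIN+ over CORIN- cells in the ESC pair (horizontal axis) and in the VM pair (vertical axis), 1 point per gene, coloured by group. The dotted line marks equal folds, and 35 of the 38 points lie above it. Replication genes lie mostly left of 0 and above 0, and Cdkn2c stands alone at the upper right.

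Setting ESC-derived cells against fetal cells is a comparison the study did not make. Strain, culture and the gate differ with the source and cannot be told apart from it, and these comparisons reuse the arrays above. Among CORIN- cells, ESC-derived cells had the higher signal for most of the set. Replication genes were higher in 11 of 14, with a median log2 fold of 0.52, mitosis genes in 16 of 16, with a median of 0.46, and G1 genes in 5 of 8, with a median of 0.16. Over all genes 47.7% were higher, with a median of -0.015 and a scaled MAD of 0.287. Over the 11101 brighter genes 55.4% were higher, with a median of 0.053. At a log2 fold of 0.32 or more were 24 of the 38 genes, against 19.0% of all genes and 26.9% of the brighter ones, and 1 gene, Ccnd1, was lower by 0.32 or more, against 14.6% of all genes.

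Cdc6 (log2 fold 0.86), Gins2 (0.79), Mcm10 and Cdt1 (0.77 each) led the replication genes in this comparison. Cdk1 (0.83) led the mitosis genes, a ratio of 1.78, and Aurka (0.55) and Cenpf (0.51) came next. Pcna was at 0.27, Rrm1 at 0.09, and Mcm2, Rrm2 and Gins1 were slightly lower at -0.10, -0.14 and -0.09. Ccnd3 was at 0.79, Ccnd2 at 0.63 and Cdkn2c at 0.47.

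Among CORIN+ cells the same comparison gave smaller values. Replication genes were higher in 12 of 14 (median log2 fold 0.19), mitosis genes in 13 of 16 (median 0.14) and G1 genes in 4 of 8 (median 0.046). Over all genes 53.8% were higher, with a median of 0.022 and a scaled MAD of 0.276. Over the 11101 brighter genes 60.9% were higher, with a median of 0.088, which is above the G1 median. At a log2 fold of 0.32 or more were 8 genes, against 18.1% of all genes and 25.2% of the brighter ones, so the share of the set was close to the background. They were Mcm10 (0.47), Gins2 (0.40), Cdc6 (0.34) and Mcm4 (0.33) of replication, Cdk1 (0.40) and Cenpf (0.33) of mitosis, and Ccnd3 (0.36) and Cdkn1b (0.41, in the brighter of its 2 clusters) of G1. With quantile normalization the count was 4. Lower by 0.32 or more were Ccnd1 (-0.74) and Rrm2 (-0.36), against 13.9% of all genes.

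Ccnd1, cyclin D1, ran against the other D-type cyclins. Its log2 signal was 11.30 in ESC CORIN+ cells and 11.51 in ESC CORIN- cells, against 12.04 in VM CORIN+ cells and 12.34 in VM CORIN- cells, so that the ESC-derived arrays were both below the fetal ones. The log2 fold was -0.74 among CORIN+ cells and -0.83 among CORIN- cells. Ccnd2 had 12.78 in ESC CORIN+ cells and 12.99 in ESC CORIN- cells, and Ccnd3 had 11.32 in ESC CORIN+ cells and 11.28 in ESC CORIN- cells, all above the fetal arrays of the same gene. For Cdkn1b the 2 clusters disagreed between sources. The brighter one had log2 folds of 0.41 among CORIN+ cells and 0.09 among CORIN- cells, and the dimmer one -0.25 among CORIN+ cells and -0.97 among CORIN- cells, so no direction is given for this gene.

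**Figure D4:**
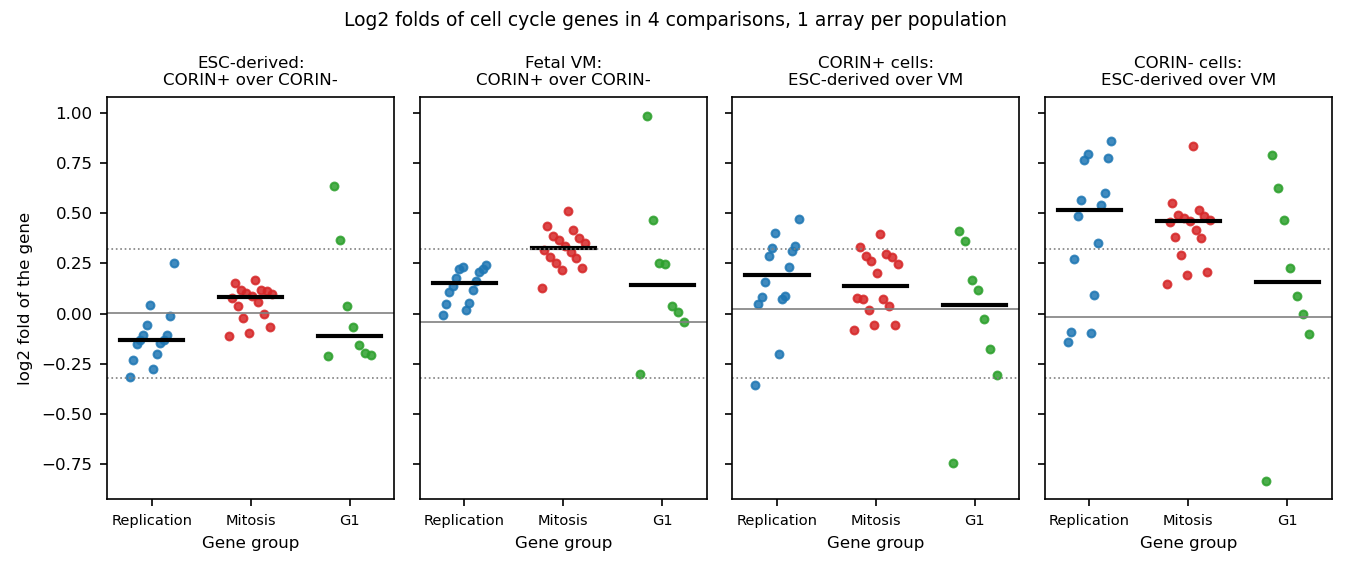
Log2 folds (vertical axis) of the replication, mitosis and G1 genes in each of the 4 comparisons, 1 point per gene. Black bars are group medians, the grey line is the median of all genes, and the dotted lines mark a log2 fold of 0.32 in either direction. The mitosis median is 0.33 in the VM pair and 0.084 in the ESC pair, and replication and mitosis lie highest among CORIN- cells of the 2 sources.

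The wider replication and mitosis lists, read on the same arrays, gave similar values between sources. Over all genes 47.7% were higher in ESC-derived cells among CORIN- cells and 53.8% among CORIN+ cells. Among CORIN- cells, 44 of 45 other replication genes were higher in ESC-derived cells (median log2 fold 0.44), with the origin recognition subunit Orc1 at 1.43, and 51 of 56 other mitosis genes (median 0.49), with Pttg1, the securin gene, at 1.78. Among CORIN+ cells these were 41 of 45 (median 0.24) and 51 of 56 (median 0.31). The 25 other G1 genes were mixed, with 16 higher in ESC-derived cells among CORIN- cells (median 0.22) and 10 among CORIN+ cells (median -0.02). Their highest was Cdk6, at 1.67 among CORIN- cells and 0.97 among CORIN+ cells. Their lowest was Cdkn1c, at -2.68 among CORIN- cells and -2.71 among CORIN+ cells. Postmitotic neuron genes were lower in ESC-derived cells in 20 of 20 in both comparisons, with a median log2 fold of -1.53 among CORIN- cells and -1.58 among CORIN+ cells. Pluripotency genes were higher in 11 of 12 among CORIN- cells, with a median of 1.11. Floor plate genes were higher in ESC-derived cells in 10 of 10 among CORIN- cells (median 1.39) and in 9 of 10 among CORIN+ cells (median 1.16). Erythroid genes were lower in ESC-derived cells in 7 of 9 in both comparisons. Among CORIN+ cells 15 of 15 macrophage genes and 13 of 14 mesenchyme genes were lower in ESC-derived cells, with medians of -4.01 and -2.76. Their part in these differences was not tested.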

How the data were processed

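The authors sorted the cells by FACS, labelled the RNA with the Ambion WT Expression Kit for Affymetrix whole-transcript arrays, and deposited a table of log2 signals for 28856 transcript clusters in 4 arrays. GeneSpring 13.0 was named for their analysis. How probes were summarized and arrays normalized, whether clusters were filtered, and the build of the array annotation is not given in the sources used here. The depth of an array has no counterpart here, and the number of arrays, 1 per population, limits the precision. Symbols of the platform annotation were updated through gene identifiers for 21698 of 21789 clusters with 1 symbol, which gave 19938 genes. Clusters with several symbols (1621) or none (5446) were left out. The log2 fold was the difference of 2 arrays, and groups were described by median, counts and the same over all genes. No test was possible. The calculation of folds was run on simulated data with planted folds. That checks the calculation alone and says nothing about the counts and medians given here. The members and lists were chosen with earlier results of these data known, and the fetal difference of cell division genes had been seen before. Values in all arrays are given for the 3 genes of each group with the largest fold in any comparison and for Mki67, Pcna, Ccnd1, Ccnd2, Cdkn1b and Cdkn2c. Mcm5 and Mcm2 were added after their values were seen. Symbols and promoters came from RefSeq on GRCm38.p6, and coordinates are given for the printed sequences alone. Alternatives were quantile normalization, folds centred on the median of all genes, 32 added to the linear signal, a filter that kept clusters brighter than the 20th or the 50th percentile, every cluster of a gene averaged, and 1.5-fold or 2-fold in place of a log2 fold of 0.32. All 38 genes passed both filters, so these 2 settings could not change any value of the set. Python 3.11.15, numpy 2.4.6, pandas 2.3.3 and matplotlib 3.10.9 were used.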

Additional observations from a re-analysis of the deposited data

Results flagged for a closer look

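For 3 genes CORIN+ over CORIN- went opposite ways in the ESC pair and the VM pair, each by more than the scaled MAD of its pair. Cdc6 had a log2 fold of -0.31 in the ESC pair and 0.21 in the VM pair, a difference of -0.52. For Cdt1 these were -0.23 in the ESC pair and 0.23 in the VM pair, a difference of -0.46. For Ccnd2 they were -0.21 in the ESC pair and 0.25 in the VM pair, also a difference of -0.46. Of all 19938 genes, 1360 went opposite ways by the same measure, a share close to the 3 of 38 in the set. The differences were not tested, as each population has 1 array.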

How the results depend on the processing

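Of the 12 group medians, the G1 median between CORIN+ cells of the 2 sources moved most and alone changed sign, at 0.046 as deposited and -0.034 with quantile normalization. The others moved by at most 0.044 in log2 fold. Counts of genes higher were the same for all settings in the ESC pair. With quantile normalization or centred folds, replication genes higher in the VM pair were 14 of 14, and mitosis genes higher among CORIN+ cells by source were 12 of 16. Replication genes higher among CORIN+ cells by source were 11 of 14 with quantile normalization. G1 genes higher in the VM pair were 7 of 8 with centred folds. Among CORIN- cells by source, G1 genes higher were 6 of 8 with centred folds and 4 of 8 with the mean over all clusters. Counts depended on the threshold. In the ESC pair, 2 genes were higher by a log2 fold of 0.32 or more, 1 at 1.5-fold and 0 at 2-fold, and 0 genes were lower, or 1 with quantile normalization. In the VM pair 10 were higher, 1 at 1.5-fold and 0 at 2-fold. Among CORIN+ cells by source 8 were higher, 4 with quantile normalization, 5 with centred folds, 0 at 1.5-fold and 0 at 2-fold, and 2 were lower, 1 at 1.5-fold and 0 at 2-fold. Among CORIN- cells by source 24 were higher, 8 at 1.5-fold and 0 at 2-fold, and 1 was lower, 2 with the mean over all clusters and 0 at 2-fold. Of all 19938 genes, those higher by 1.5-fold or more were 303 in the ESC pair and 1180 in the VM pair. They were 1571 among CORIN+ cells by source and 2068 among CORIN- cells by source. Lower by as much were 1611 among CORIN+ cells and 1432 among CORIN- cells by source. At 1.5-fold the share of the set in the VM pair was thus below that of all genes. Single genes changed sign in 8 cases, 7 of them close to 0. The other, Cdkn1b, was the one gene to move past the MAD, with the mean over its clusters, to 0.55 in the ESC pair, 0.079 among CORIN+ cells by source and -0.44 among CORIN- cells by source. The causes were not tested. No paired analysis was possible because each population has 1 array, and for the same reason no replicate could be left out. Background signals were not used here, so how far a dim cluster lies above background is unknown, and without replicates the error of each fold is unknown.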

Other observations

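Between sources, a further gene that holds back the cell cycle differed by more than any member. Cdkn1c, the gene of the CDK inhibitor p57, had a log2 signal of 8.66 in ESC CORIN+ cells and 8.75 in ESC CORIN- cells, against 11.36 in VM CORIN+ cells and 11.43 in VM CORIN- cells, with log2 folds of -2.71 among CORIN+ cells and -2.68 among CORIN- cells. It hardly differed between CORIN+ and CORIN- cells of 1 source, at -0.09 in the ESC pair and -0.07 in the VM pair.

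Targets of p53, the transcription factor of the DNA damage response, were mostly higher in ESC-derived cells. Of 22 measured, 16 were higher among CORIN+ cells (median log2 fold 0.54) and 16 among CORIN- cells (median 0.36). Among CORIN+ cells 14 were higher by 0.32 or more, against 18.1% of all genes, and 4 lower by as much, against 13.9%. Among CORIN- cells 11 were higher by 0.32 or more, against 19.0% of all genes, and 3 lower by as much, against 14.6%. The receptor genes Eda2r and Tnfrsf10b were at 2.79 and 1.66 among CORIN+ cells and at 2.93 and 2.74 among CORIN- cells. The lowest were Sesn1 at -0.75 among CORIN+ cells and Gadd45a at -0.69 among CORIN- cells. Cdkn1a, the best known of these targets, was not analysed here. Strain, culture and gate cannot be told apart from the source.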
